A study of Rattus norvegicus with 8 samples.

Results

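The oligodendrocyte lineage was followed from precursor to differentiation through 10 genes: Pdgfra and Cspg4 of the precursor, the lineage transcription factors Olig1, Olig2 and Sox10, Gpr17 of the committed cell, Enpp6 and Bcas1 of the newly forming oligodendrocyte, and the differentiation factors Myrf and Nkx6-2. They were chosen by symbol: a probe set was used where the platform annotation gives it exactly 1 symbol, equal to the gene's. All 10 were found, each with a single probe set, among 18166 genes tested. The tissue was thoracic spinal cord of male Long Evans rats about 175 days old, hybridised to 8 Affymetrix rat gene 2.0 ST arrays. The injured group (SCI, injury at a thoracic level) has 4 arrays, and the sham group, whose rats had only a laminectomy, has 4. The growth protocol names 10 rats. Those of both groups weighed about 400 g, ate chow with 17% fat while they recovered for 4 weeks, and then a high-fat diet with 40% fat, so no comparison here bears on diet. The protocol gives a total of 8 weeks without saying whether it counts the recovery. The sources used here do not give the injury's segment or kind, and the labels give the sampled piece both as segments 10 to 11 and as segments 11 to 12.

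Oligodendrocytes, which wrap axons of the central nervous system in myelin, arise from precursor cells that keep dividing in the adult cord. A precursor first commits and leaves the cell cycle, then passes through a short premyelinating stage, and then switches on the myelin genes under the control of Sox10 and Myrf. After spinal cord injury, precursors are known to divide and to replace some of the oligodendrocytes that are lost.

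Values are log2 signals from the authors' RMA (robust multi-array average), on which a difference of 1 is a doubling. A gene is said to have risen or fallen where limma, fitted over all genes tested, gave a Benjamini-Hochberg adjusted p under 0.05, and every adjusted p here is from limma. The 95% intervals are for each gene alone. Levels of different probe sets cannot be set against each other, so only differences are compared between genes. A summed signal adds the unlogged signals of a list on each array, so the brightest probe sets weigh most in it. Such sums are compared only between arrays. The median probe set of an array was at 3.73 to 3.81. On the second principal component of the values, SCI 3, sham 1 and sham 2 stood apart from the other 5 arrays. The calls that changed without these 3 arrays are given by gene or by count. The tissue carried signal for neurons (Snap25, 11.72 to 12.27 over the 8 arrays), astrocytes (Gfap, 10.80 to 11.75) and myelin (Mbp, 10.85 to 11.76), and for the trunk position gene Hoxc8 (7.91 to 8.30). No label says which animal an array came from, so the p-values measure the spread between these arrays, which may be technical.

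Along the lineage, the precursor receptor Pdgfra was higher in injured cord, and Olig1, Sox10, Enpp6, Bcas1 and Myrf were lower. Of the 10 genes 6 passed the test, 1 higher and 5 lower, where 14.2% of all genes tested passed, 7.1% higher and 7.06% lower. Cspg4 and Gpr17 had positive differences and Olig2 and Nkx6-2 negative ones that did not pass. The share depends on signal level: in a fit to the 8271 genes with a mean of at least 5, 37.1% passed. Of the 9 lineage genes in that fit, 2 were higher and 6 lower. The median difference of the 10 genes was -0.34, against -0.01 for all genes tested, whose quartiles were -0.17 and 0.15. The groups did not overlap for 8 of the 10 genes, with SCI below sham for 6 and above it for 2, and for 20.3% of all genes tested. RNA came from whole tissue, so fewer cells of a type and less RNA per cell cannot be told apart.

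**Figure D1:**
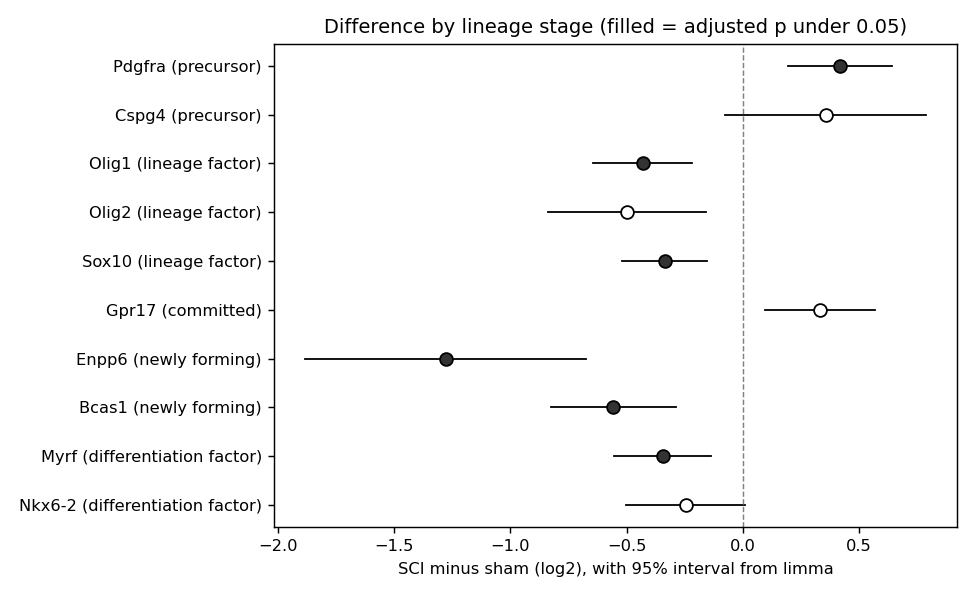
SCI minus sham difference (log2, horizontal axis) of each lineage gene, ordered from precursor at the top to differentiation at the bottom, with its 95% interval from limma. Filled points passed at an adjusted p under 0.05. Pdgfra, Cspg4 and Gpr17 lie right of 0, and Enpp6 lies farthest left at -1.28.

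**Figure D2:**
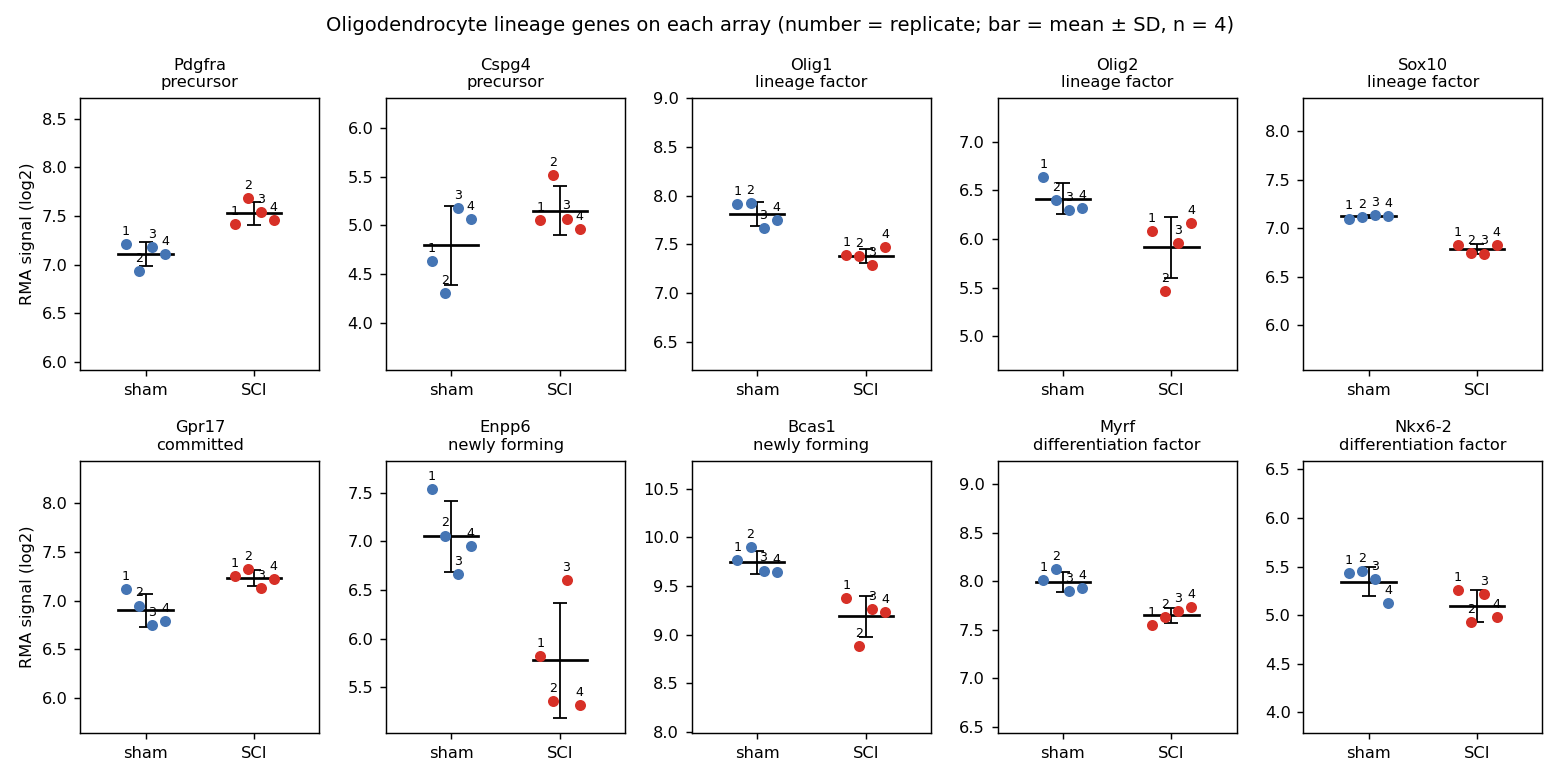
RMA signal (log2, vertical axis) of each lineage gene on every array, with sham in blue and SCI in red, replicate numbers above the points, and mean ± SD (n = 4) in black. All panels span the same number of log2 units. Enpp6 has the largest difference between the group means and, in SCI, the widest spread. Sox10 has the narrowest spread.

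Pdgfra, the receptor through which platelet-derived growth factor keeps precursors dividing and migrating, rose. Its signal (probe set 17694084) was 7.42, 7.69, 7.54 and 7.46 on the SCI arrays and 7.21, 6.94, 7.18 and 7.11 on the sham arrays. Every SCI array lay above every sham array, with 0.21 between the closest of them and SCI 2 the highest. The mean went from 7.11 ± 0.12 to 7.53 ± 0.12 (SD, n = 4), a 1.34-fold rise (difference 0.42, SE 0.10, 95% interval 0.19 to 0.64, adjusted p = 0.020). The call was lost without SCI 2, sham 2 or sham 4 (adjusted p of 0.063, 0.052 and 0.051), and at 0.15 without SCI 3, sham 1 and sham 2 together, where the difference was 0.38. The call held in 10 of 16 alternatives, over which the adjusted p ran from 0.0026 to 0.15. It was also lost with the title number as covariate (0.091) and with all probe sets tested (0.061).

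The bases upstream of Pdgfra and of Enpp6, which moved in opposite directions, are shown together. RefSeq's promoter table for GRCr8 matched 6 of the 10 genes and, of the 6 that passed the test, only these 2. Each run gives the 250 bases before the annotated start, 5′ to 3′ along the gene. Both genes lie on the minus strand, Pdgfra's run at chr14:33408517-33408766 and Enpp6's at chr16:52026729-52026978. Capitals mark matches to CANNTG, the E-box core that helix-loop-helix factors such as Olig1 and Olig2 can bind.
Pdgfra: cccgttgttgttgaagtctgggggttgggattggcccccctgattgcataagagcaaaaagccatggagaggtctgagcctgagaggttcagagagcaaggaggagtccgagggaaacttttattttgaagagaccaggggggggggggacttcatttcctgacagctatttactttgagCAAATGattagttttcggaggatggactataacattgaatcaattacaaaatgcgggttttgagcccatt
Enpp6: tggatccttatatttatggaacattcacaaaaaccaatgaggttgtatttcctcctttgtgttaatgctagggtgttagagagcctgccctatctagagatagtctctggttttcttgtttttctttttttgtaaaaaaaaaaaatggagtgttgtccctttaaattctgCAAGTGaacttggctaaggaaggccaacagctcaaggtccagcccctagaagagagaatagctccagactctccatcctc
The search covered both strands. Each run held 1 E-box core, starting at -70 in Pdgfra and at -80 in Enpp6, and 65.5% of all 33469 promoters in the table held at least 1 in a window of this length. Enpp6 also held ACAAAG, a core that Sox factors can bind, on the opposite strand at -196, as 16.3% of promoters did on either strand. Neither run held CAGCTG (an E-box core itself, in 12% of promoters), ACAATG (11.1%), CTGGCAC (3.78%) or CTGGTAC (1.78%), the last pair being forms of the Myrf core. A match is a description of the letters, not of binding.

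Cspg4 encodes NG2, a surface proteoglycan of precursors that pericytes carry too. Its signal (probe set 17844404) was 5.05, 5.52, 5.07 and 4.96 in SCI and 4.63, 4.30, 5.18 and 5.06 in sham. The groups overlapped, with sham 3 above all SCI arrays but SCI 2, and sham 2 the lowest. The difference of 0.36 (SE 0.20, 95% interval -0.08 to 0.79) did not pass (adjusted p = 0.29). Leaving out sham 2 gave 0.19, and leaving out SCI 3, sham 1 and sham 2 together gave 0.06.

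Pdgfra is also made by fibroblasts and Cspg4 by mural cells, so the markers of both are given here. Of 14 fibroblast genes 6 were higher, 7 did not pass and 1, Thy1 (-0.52), which neurons make too, was lower. The log2 of their summed signal was 11.62 to 11.96 in SCI and 11.45 to 11.69 in sham. Col1a1, a chain of fibrillar collagen, rose from 6.21 ± 0.23 to 7.14 ± 0.32 (SD, n = 4, adjusted p = 0.0044), and the collagen chain Col1a2 (1.00), the microfibril gene Mfap4 (0.99) and the fibulin Fbln1 (0.96) rose as well. Without SCI 3, sham 1 and sham 2, 2 of the 14 passed, and Col1a1 (0.080) and Fbln1 (0.057) did not. Pdgfrb, the receptor of fibroblasts and pericytes, had 0.34 (95% interval 0.04 to 0.64, adjusted p = 0.14). SCI 2, the highest array for Pdgfra and Cspg4, also had the highest fibroblast sum. Of 11 mural cell genes 3 were higher, 8 did not pass and 0 were lower (limma). At an unadjusted p under 0.05, 2 were lower, Abcc9 (-0.35) and Tagln (-0.34), both picked after their values were seen. The list had a summed signal of 9.35 to 9.64 in SCI and 9.0 to 9.14 in sham. Anpep, an aminopeptidase of pericytes and also of myeloid cells, rose by 2.10 (SE 0.17), and Vtn, vitronectin, by 1.01 (SE 0.15). The third, the smooth muscle myosin Myh11 (0.47, adjusted p just under the threshold), lost its call in 11 of 16 alternatives, while the pericyte gene Rgs5 had -0.13 (adjusted p = 0.41). The lowest value of any fibroblast gene on any array was 1.84 and that of any mural gene 3.03. Both lie below the median probe set of an array, and detection was not assessed. The part of these cells in the differences of Pdgfra and Cspg4 was not tested.

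Of the 3 lineage factors, Olig1 and Sox10 fell and Olig2 did not pass. Olig1, a helix-loop-helix factor needed for maturation and remyelination, had signals (probe set 17664624) of 7.39, 7.38, 7.29 and 7.47 in SCI and 7.91, 7.92, 7.67 and 7.75 in sham. All SCI arrays lay below all sham arrays, with a gap of 0.21. It fell by 0.43 (SE 0.10, 95% interval -0.64 to -0.22, adjusted p = 0.013). The call held without any 1 array (adjusted p of 0.016 to 0.039) and was lost without SCI 3, sham 1 and sham 2 together (-0.30, adjusted p = 0.19).

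Olig2, the related factor that specifies the lineage and is present at all its stages, had signals (probe set 17664621) of 6.08, 5.46, 5.96 and 6.16 in SCI and 6.64, 6.40, 6.30 and 6.32 in sham. The groups did not overlap, and SCI 2 lay far below the other SCI arrays. The difference of -0.50 (SE 0.15, 95% interval -0.84 to -0.16) was larger in size than that of Olig1 but missed the threshold (adjusted p = 0.055), with an SD of 0.32 in SCI against 0.07 for Olig1. It passed in 4 of 16 alternatives, among them arrays centred on their medians (0.041) and SCI 4 left out (0.040), and the adjusted p ran from 0.016 to 0.32. The difference between Olig1 and Olig2 in this respect was not tested.

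Sox10, which works with Olig2 and then with Myrf to turn on myelin genes, had the smallest spread of the 10 genes. Its signal (probe set 17839104) was 6.83, 6.75, 6.74 and 6.83 in SCI and 7.10, 7.12, 7.14 and 7.13 in sham. The groups stood 0.27 apart, more than the whole range within either group. It fell by 0.34 (SE 0.08, 95% interval -0.52 to -0.15, adjusted p = 0.021), from 7.12 ± 0.01 to 6.79 ± 0.05 (SD, n = 4). Its SE in limma takes in part of the spread of all genes. Leaving out SCI 2, SCI 3, sham 3 or sham 4 ended the call, with adjusted p from 0.051 to 0.060. So did the fit without SCI 3, sham 1 and sham 2 together (0.15), the title number as covariate (0.085) and all probe sets tested (0.055). The call held in 9 of 16 alternatives, while the difference stayed between -0.39 and -0.32 over all 16. Schwann cells make Sox10 too. Of 13 Schwann cell markers tested, 4 were higher, 1 was lower and 8 did not pass, with a summed signal of 10.92 to 11.27 in SCI and 10.43 to 10.66 in sham. The sodium channel Scn7a rose by 1.25 (SE 0.15), Ncmap by 0.91 (SE 0.13) and Pmp22, of peripheral myelin and other cells, by 0.83 (SE 0.11). The lower gene was Fbxo2 (-0.71), which neurons make too. Leaving out SCI 3, sham 1 and sham 2 left 3 higher, and Fbxo2 was then at 0.063. The part of Schwann cells in the signal of Sox10 was not tested.

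Past commitment the genes differed in sign. Gpr17, a receptor switched on as the precursor commits and switched off before myelination, had signals (probe set 17725277) of 7.25, 7.33, 7.13 and 7.22 in SCI and 7.12, 6.95, 6.75 and 6.79 in sham. SCI 3 lay above sham 1 by only 0.01, so the groups did not overlap by the narrowest margin of the 8 such genes. The difference of 0.33 (SE 0.11, 95% interval 0.09 to 0.57) missed the threshold (adjusted p = 0.066). Without sham 1 it was 0.40 and passed (0.036), it passed in 3 further alternatives, and the adjusted p ran from 0.018 to 0.32 over all 16.

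Enpp6, a choline phosphodiesterase made by newly forming oligodendrocytes, showed the largest difference of the 10. Its signal (probe set 17711667) was 5.82, 5.36, 6.60 and 5.32 in SCI and 7.54, 7.06, 6.66 and 6.95 in sham. SCI 3 stood well above the other SCI arrays and came within 0.06 of sham 3, the lowest sham array, so that the groups were separate by little. The mean went from 7.05 ± 0.37 to 5.78 ± 0.59 (SD, n = 4), which is 2.42-fold lower (difference -1.28, SE 0.27, 95% interval -1.88 to -0.67, adjusted p = 0.011). Only 8 of the 18166 genes tested had a lower difference. Enpp6 was the only 1 of the 10 genes to pass in all 16 alternatives, with an adjusted p of 0.0017 without SCI 3 and at most 0.046. Without SCI 3, sham 1 and sham 2 the difference was -1.30 (0.016), and within those 3 arrays, where SCI has a single array and no test was made, it was -0.71.

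Bcas1 marks early myelinating oligodendrocytes and stays on in some mature ones. Its signal (probe set 17779697) was 9.38, 8.88, 9.26 and 9.23 in SCI and 9.77, 9.90, 9.66 and 9.64 in sham. The groups did not overlap, and SCI 2 was again the lowest. It fell by 0.56 (SE 0.12, 95% interval -0.83 to -0.29, adjusted p = 0.012), to a level 1.47-fold lower. Of 16 alternatives 15 kept the call, and it was lost without SCI 3, sham 1 and sham 2 together (-0.49, adjusted p = 0.14). Gpr17 and Enpp6 thus had opposite signs on every SCI array: relative to the sham mean, Gpr17 was higher by 0.23 to 0.43 and Enpp6 lower, at -0.46 on SCI 3 and -1.73 to -1.23 on the others.

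Of the differentiation factors, Myrf fell and Nkx6-2 did not pass. Myrf, the membrane-bound factor that starts and maintains myelin gene expression, had signals (probe set 17640423) of 7.55, 7.63, 7.69 and 7.73 in SCI and 8.01, 8.13, 7.90 and 7.93 in sham. All SCI arrays lay below all sham arrays, by at least 0.17. It fell by 0.35 (SE 0.09, 95% interval -0.55 to -0.14, adjusted p = 0.032), to a level 1.27-fold lower. This call passed in 7 of 16 alternatives. It was lost without any 1 of SCI 1, SCI 2, SCI 3, sham 1, sham 2 and sham 4 (adjusted p of 0.057 to 0.093) and was at 0.23 without SCI 3, sham 1 and sham 2 together. Nkx6-2, a homeodomain factor of maturing oligodendrocytes, had signals (probe set 17638002) of 5.26, 4.93, 5.22 and 4.98 in SCI and 5.43, 5.45, 5.37 and 5.13 in sham. The groups overlapped through sham 4, which lay below SCI 1 and SCI 3. The difference of -0.25 (SE 0.12, 95% interval -0.50 to 0.01, adjusted p = 0.21) did not pass in any of the 16 alternatives.

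**Figure D3:**
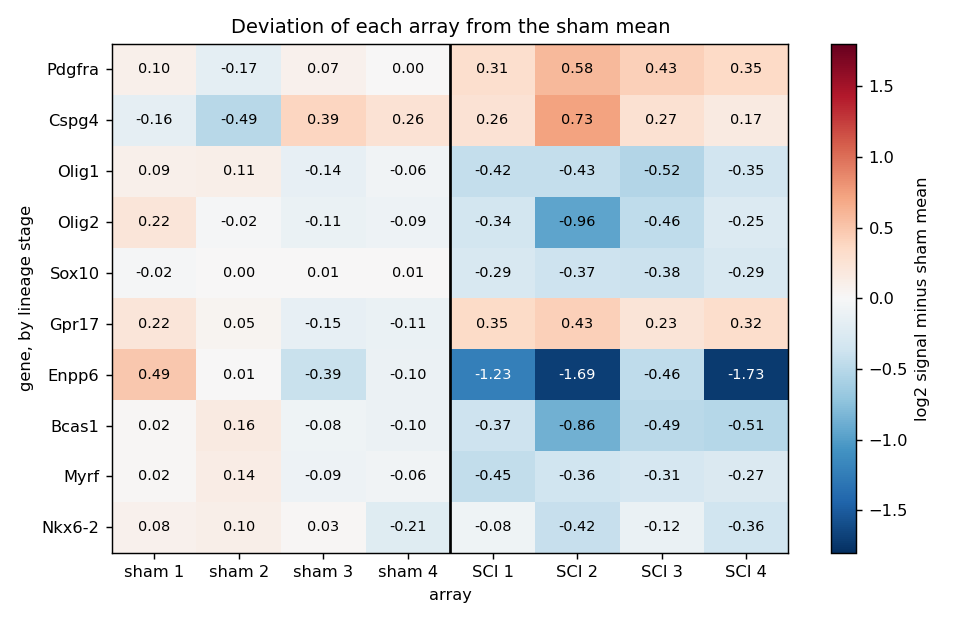
Signal of each lineage gene (rows, by stage) on each array (columns) minus the gene's sham mean, in log2 units, with red above and blue below the sham mean. On all 4 SCI arrays Pdgfra, Cspg4 and Gpr17 are above and the other 7 genes below the sham mean, and Enpp6 on SCI 3 (-0.46) is the mildest of its row.

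Read by array, all 4 SCI arrays had the same signs: Pdgfra, Cspg4 and Gpr17 above the sham mean and the other 7 genes below it. SCI 2 was the SCI array farthest from the sham mean for 6 of the 10 genes (Pdgfra, Cspg4, Olig2, Gpr17, Bcas1 and Nkx6-2). It was also the SCI array with the highest summed signal of 14 myeloid markers (12.85, against 12.47 to 12.70 on the other SCI arrays and 11.29 to 11.57 in sham) and the lowest of 18 mature myelin genes (13.14, against 13.16 to 13.39). All 14 myeloid markers were higher in SCI, among them the lysosomal protein Cd68 (4.17, SE 0.14), the signalling adaptor Tyrobp (1.89, SE 0.14), the Fc receptor chain Fcer1g (2.00, SE 0.15) and Aif1 (0.98, SE 0.13). Of the 14, 11 passed without SCI 3, sham 1 and sham 2. All 12 neuron markers were lower, with a summed signal of 13.07 to 13.35 in SCI and 13.63 to 13.80 in sham. Those with the smallest p were the neurofilament genes Ina (-0.77) and Nefm (-0.62) and the synaptic vesicle gene Syp (-0.58). Without SCI 3, sham 1 and sham 2 only Ina of the 12 kept its call (Nefm at 0.053, Syp at 0.060), and with the title number as covariate 5 did. Whether the cell mix changed, and what part that had in the lower lineage genes, was not tested. The SD within a group ran from 0.05 (Sox10) to 0.59 (Enpp6) in SCI and from 0.01 (Sox10) to 0.41 (Cspg4) in sham, and 5 of the 10 genes varied more in SCI.

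Each of the 10 genes kept its sign within both sets of arrays that the second component parted. For the 8 genes whose groups did not overlap this was fixed in advance. Only Cspg4 and Nkx6-2 could have changed sign. Cspg4 and Gpr17 differed most between the sets in relative size. Cspg4 had 0.60 in SCI 3, sham 1 and sham 2 and 0.06 in the other 5 arrays, and Gpr17 had 0.09 and 0.50. Olig1 had -0.62 and -0.30, and Pdgfra 0.47 and 0.38. The set of 3 arrays holds a single SCI array, so these values carry no test.

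**Figure D4:**
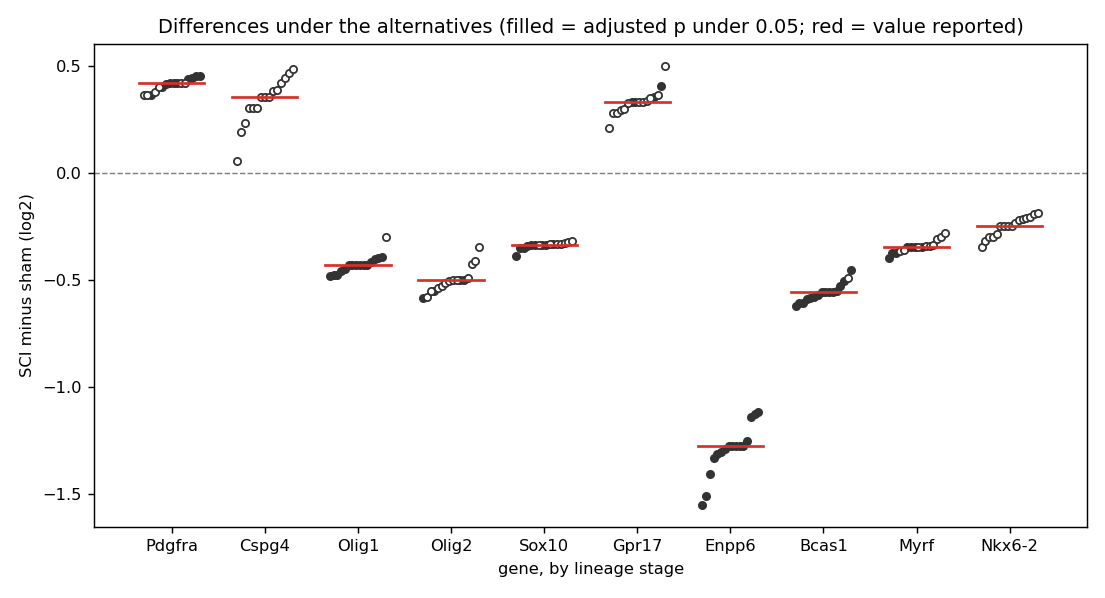
SCI minus sham difference (log2, vertical axis) of each lineage gene under each alternative (points, sorted by value, filled where the adjusted p was under 0.05), with the value reported as a red line. No point crosses 0. The points of Enpp6 are all filled, while Cspg4 has 15 open points and Nkx6-2 has 16.

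The other genes of each stage, from lists of known lineage genes, did not all follow the 10. Of 21 further precursor genes 2 were higher, 1 lower and 18 did not pass, with a median of 0.03. The 3 calls are 14.3% of the list, near the 14.2% of all genes tested, so the count is no result about precursors. C1ql1, a secreted synapse-organising protein of precursors, rose from 6.30 ± 0.09 to 6.81 ± 0.14 (SD, n = 4, adjusted p = 0.0070), and Lhfpl3, a membrane protein of precursors, from 8.25 ± 0.10 to 8.73 ± 0.15 (SD, n = 4, adjusted p = 0.013). Ncald, a calcium sensor that neurons make too, fell by 0.64 (SE 0.10, adjusted p = 0.0025). All 3 calls were lost without SCI 3, sham 1 and sham 2 (0.057 to 0.15). The phosphatase Ptprz1, picked after its value was seen, had 0.10 (95% interval -0.13 to 0.32).

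Of 17 further genes of committed and newly forming oligodendrocytes 5 were higher and 2 lower, with a median of 0.09. That is 41.2% of the list, against 14.2% of all genes tested. With a mean of at least 5, 4 of 13 were higher and 1 lower, where 37.1% of all genes in that fit passed. The lower genes were Casr (-0.51) and Ctps1 (-0.43), both picked after their values were seen. Their calls were lost in 10 and 9 of 16 alternatives. Tns3, an adhesion protein of the premyelinating stage, rose from 6.31 ± 0.10 to 7.10 ± 0.13 (SD, n = 4, adjusted p = 6.3e-04), and this call held in all 16 alternatives. The Wnt effector Tcf7l2, on in newly forming oligodendrocytes, rose by 0.45 (SE 0.11, adjusted p = 0.020), the adhesion gene Lims2 by 0.56 (SE 0.14, adjusted p = 0.021) and Bmp4, a ligand of committed precursors that also holds back differentiation, by 0.41 (SE 0.11, adjusted p = 0.032). These calls were lost in 6, 6 and 11 of 16 alternatives, and those of Tcf7l2 and Bmp4 also without SCI 3, sham 1 and sham 2. Without any 1 array the number of calls in this list dropped from 7 to between 1 (without SCI 2) and 4. Enpp6 at -1.28 and Bcas1 at -0.56 thus lay outside the range of -0.51 to 0.79 of these 17 genes.

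Of 20 further transcription and chromatin factors 2 were higher and 1 lower, with a median of 0.05. These calls are 15% of the list, near the 14.2% of all genes tested. Prrx1, a homeodomain factor of quiescent precursors that fibroblasts make too, rose by 0.52 (SE 0.12, adjusted p = 0.018). Id2, an inhibitor of helix-loop-helix factors, rose by 0.35 (SE 0.09, adjusted p = 0.027) at a dim signal of 2.87 to 3.40. Zfp488, a zinc finger factor that works with Olig2, fell by 0.47 (SE 0.12, adjusted p = 0.027). The number of calls was 1 without SCI 1, SCI 2, SCI 4, sham 2 or sham 4, and 0 (limma; 3 at an unadjusted p under 0.05) without SCI 3, sham 1 and sham 2 together.

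The end of the path was lower over most of its genes. Among the 18 genes tested for mature oligodendrocytes and myelin, 14 fell and 0 rose (limma; 0 at an unadjusted p under 0.05), with a median of -0.58 and a summed signal of 13.14 to 13.39 in SCI and 13.81 to 13.90 in sham. Mog, a glycoprotein of the outer myelin surface, went from 9.33 ± 0.08 to 8.55 ± 0.13 and Mbp, the myelin basic protein, from 11.68 ± 0.07 to 10.98 ± 0.11 (SD, n = 4). Fa2h, which hydroxylates myelin lipids, fell by 1.09 (SE 0.11) and Hapln2, a link protein of nodes of Ranvier, by 0.93 (SE 0.11). Opalin (-0.13, 95% interval -0.34 to 0.08) and the aspartoacylase Aspa (0.04, 95% interval -0.22 to 0.30), both of mature oligodendrocytes and picked after their values were seen, did not pass. Without SCI 3, sham 1 and sham 2 the number that passed was 8.

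Among signals that act on the lineage, 19 mitogens, survival factors and their receptors were tested, and 3 were higher and 2 lower. That is 26.3% of the list, against 14.2% of all genes tested. With a mean of at least 5, 4 of 15 were higher and 4 lower, where 37.1% of all genes in that fit passed. Igf1, a growth factor that favours oligodendrocyte survival and differentiation and that phagocytes make, rose 3.87-fold, from 6.48 ± 0.11 to 8.43 ± 0.25 (SD, n = 4, adjusted p = 1.6e-05), beside the rise of all 14 myeloid markers. Pdgfa, the ligand of the Pdgfra receptor, had signals of 6.03, 6.16, 6.09 and 5.79 in SCI and 6.44, 6.46, 6.58 and 6.37 in sham. It thus fell (-0.44, SE 0.11, adjusted p = 0.018) on arrays where its receptor rose. The call of Pdgfa was lost in 4 of 16 alternatives (adjusted p at most 0.12). These were without sham 3, without SCI 3, sham 1 and sham 2, with the title number as covariate, and with all probe sets tested. Nrg1, a neuronal ligand of the lineage, fell (difference -0.49, SE 0.12, adjusted p = 0.018). It too had no call in 4 of 16 alternatives, among them without SCI 3 and without SCI 3, sham 1 and sham 2 together. Of the further platelet-derived growth factor genes tested, Pdgfb (0.47) and Pdgfc (0.48) were higher, with the call lost in 10 and 9 of 16 alternatives.

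Of 21 genes that hold differentiation back or carry such signals 3 were higher and 1 lower, 19% of the list. Gpr37, an orphan receptor of maturing oligodendrocytes that restrains myelination, fell by 0.89 (SE 0.13, adjusted p = 0.0014), in all 16 alternatives. Ctnnb1, the Wnt effector beta-catenin, rose by 0.45 (SE 0.10, adjusted p = 0.010). The Wnt receptor Fzd1 rose by 0.54 (SE 0.16, adjusted p = 0.043) at a dim signal of 2.49 to 3.64, with no call in 11 of 16 alternatives. Using the title number as covariate, or leaving out SCI 3, sham 1 and sham 2, ended the call of Ctnnb1 (at most 0.070). Notch1, picked after its value was seen, rose by 0.37 (adjusted p = 0.049) and lost its call without any 1 array.

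For each gene that passed, the genes with the most similar profile were found by the root mean square distance between log2 profiles, each centred on its mean over the 8 arrays. Such a distance mostly reflects the step between the groups. For Pdgfra they were Ryk, Wdr81 and Aplnr, at 0.04 to 0.05. For Olig1 they were Faim2, Polr2m and Dlg4, at 0.05 to 0.06, and for Bcas1 Tmem35a, Lrfn5 and L1cam, at 0.05 to 0.07. For Sox10 they were Prkaca, Ttc1 and Phlpp1, at 0.03, and for Myrf Gba2, Stub1 and Btrc, at 0.05. Enpp6 had no near match: its closest genes, Rab37, Lss and Mab21l2, were at 0.37 to 0.38, while the profile of Enpp6 itself varied by 0.77 about its mean.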

How the data were processed

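Messenger RNA was measured in 8 samples, 4 SCI and 4 sham, grouped by the protocol label. Replicate numbers follow accession order and carry no pairing. RNA was extracted with TRIzol plus a kit and biotin-labelled, per the labels' protocols. The deposited log2 values came from Affymetrix Expression Console with RMA, per the submitters' processing notes. RMA subtracts background, equalises the distributions of the arrays and summarises the probes of a set. The sources used here give no version, setting or genome build. RMA compresses differences of dim probe sets, and no detection calls were used. The number of arrays limits the precision.

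Of 36685 probe sets, 18511 have exactly 1 symbol in the platform annotation, 575 several and 17599 none here. For 291 genes with several probe sets the one with the highest mean was kept, which gave 18166 genes. Gene IDs of 18394 probe sets matched RefSeq (GRCr8), and 0 symbols changed. The groups were compared by limma (version 3.58.1, R 4.3.3), using lmFit and eBayes without covariates and Benjamini-Hochberg adjustment over all genes, at a threshold of 0.05. The script was tested on simulated data. Alternatives were median centring, each array left out, SCI 3, sham 1 and sham 2 left out, the second number of the sample titles as covariate, a mean of at least 5, eBayes with trend and robust, the mean of probe sets, all probe sets tested, and array weights. From each list the 3 genes with the smallest p are named, with further genes fixed regardless of result (Mbp, Mog, Pdgfa, Igf1, Bmp4, Mki67, Col1a1, Pdgfrb, Gfap and Aif1). Snap25, Hoxc8, Thy1, Rgs5, Fbxo2, Pdgfb and Pdgfc were picked after their values were seen. The genes and lists were chosen with earlier results of these data known. Protein sequences were not used here.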

Additional observations from a re-analysis of the deposited data

How the results depend on the processing

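Under every alternative run, each difference of the 10 lineage genes kept its sign. Leaving out arrays could not reverse the 8 genes whose groups did not overlap. The mean filter, eBayes with trend and robust, and all probe sets tested change the test and not the difference. All 10 genes have a single probe set, so the mean of probe sets left their values as they were. Of 159 comparisons of a gene with its reported call, 127 left the call as it was, 24 lost it and 8 gained it. The 127 include those with the mean of probe sets, which could hardly differ. Among the lineage genes, 1 rose and 5 fell as reported. The numbers in limma were 0 (2 at an unadjusted p under 0.05) and 1 without SCI 3, sham 1 and sham 2 together, 0 (1 unadjusted) and 3 with the title number as covariate, and 0 (2 unadjusted) and 3 with all probe sets tested. With a mean of at least 5, with eBayes trend and robust, or with array weights, 2 rose. Without any 1 array 0 to 2 rose and 3 to 6 fell, with 3 without SCI 2, SCI 3 or sham 4. Over all genes, 1290 rose and 1282 fell as reported. Without the 3 arrays the counts were 563 and 284, with the covariate 813 and 543, and 838 fell with all probe sets tested. Without any 1 array 923 to 1257 rose and 780 to 1283 fell, with 780 without SCI 2 and 838 without sham 4. With arrays centred on their medians, which moves the median of all genes from -0.01 to -0.06, 38.8% of the called genes were higher, against 50.2% as reported. With the 3 arrays left out 66.5% were higher.

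The further precursor list had 3 calls as reported, 0 (limma; 3 unadjusted) without the 3 arrays, and 3 without any 1 array. The further newly forming list had 7, then 2 without the 3 arrays, 1 with the covariate, 1 with all probe sets tested, and 1 to 4 without any 1 array. The further factor list had 3, then 0 (3 unadjusted) without the 3 arrays, 1 with the covariate, 0 (5 unadjusted) with all probe sets tested, and 1 to 3 without any 1 array. The mature list had 14, then 8 without the 3 arrays, and 11 to 13 without any 1 array. The fit with the 3 arrays left out has 5 arrays and the one with all probe sets adjusts over 36685 tests. The title number used as covariate was 4, 6, 7 and 8 in SCI and 5, 9, 10 and 11 in sham. It was mostly higher in sham, so its effect and that of the group are partly mixed. For the covariate, the cause of the change was not tested. Cspg4 has no value with a mean of at least 5, which leaves it out.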

Other observations

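Genes of cell division were among those higher in injured cord. Of 14 division genes 6 rose and 0 fell (limma; 1 lower at an unadjusted p under 0.05). Mki67, a protein of dividing cells, had signals of 5.44, 5.29, 5.40 and 4.72 in SCI and 3.96, 3.94, 4.19 and 3.93 in sham, a rise of 1.21 (SE 0.16, adjusted p = 6.7e-04, limma). Top2a, a topoisomerase of dividing cells, rose by 0.92 (SE 0.10) at a dim signal of 2.59 to 3.72, and the mitotic kinase Aurkb by 0.55 (SE 0.12). Without SCI 3, sham 1 and sham 2 only Mki67 and Top2a kept their calls, and without SCI 2 or SCI 3 the number was 3. With a mean of at least 5, 1 of the 14 was tested and it did not pass. SCI 4 was the lowest SCI array for Mki67, as it was for the summed signals of the myeloid (12.47), fibroblast (11.62), mural (9.35) and Schwann cell (10.92) markers. Which cells carry these transcripts cannot be told apart in whole tissue.

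Astrocyte genes were mixed. Of 9 tested, Gfap, the astrocytic filament, rose by 0.81 (SE 0.09) and the connexin Gja1 by 0.59 (SE 0.10, no call without SCI 3, sham 1 and sham 2), the glutamate transporter Slc1a2 had a fall of 0.39 that lost its call in 9 of 16 alternatives, and 6 did not pass. Of 8 position genes, Hoxa7 fell by 0.41 (adjusted p = 0.034, limma), with no call in 10 of 16 alternatives, and Hoxc8 had 0.05 (95% interval -0.19 to 0.28). Hoxb8 had -0.36 (adjusted p = 0.084) and Hoxd10 -0.28 (adjusted p = 0.29). Whether the pieces of cord were cut at the same level in both groups was not tested.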
